A study of Drosophila melanogaster with 34 samples.

Results

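The glutathione S-transferase (GST) genes of *Drosophila* are the subject here, followed in wing imaginal discs and in the tumors that wing discs form when the polarity gene *scrib* is mutated. The members were all listed gene symbols that start with Gst, continue with a class letter (D, E, O, S, T or Z) and end in a digit. The rule used no measured value and found 35 of the 17641 listed genes, namely 11 of the delta class (D), 14 of the epsilon class (E), 3 of the omega class (O), 1 of the sigma class (S), 4 of the theta class (T) and 2 of the zeta class (Z). Of the 35 members, 29 had enough reads to be tested, and 17 reached a mean of 10 CPM (the reads of a gene scaled to the size of its library) in at least 1 group.

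GSTs are cytosolic enzymes that join glutathione to electrophiles, among them products of lipid oxidation, insecticides and other foreign compounds, and some members also act as peroxidases. The delta and epsilon classes are expanded in insects and are known for detoxification, whereas omega, sigma, theta and zeta members have relatives in many animals. In flies, expression of *GstD1* is widely used as a readout of the transcription factor CncC, the counterpart of mammalian Nrf2, which is held by Keap1 and released by oxidants and electrophiles.

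RNA was sequenced from bulk wing discs of larvae raised for a set number of days after egg laying (AEL), with 3 or 4 libraries a group and 34 libraries in 9 groups. The 7 control libraries came from the strain FRT82B (BL2035), at 4 days (n = 3) and 5 days (n = 4) AEL. The 27 tumor libraries had the genotype scrib-/-FRT82B, from the stock scrib1 FRT82B/TM6B, at 4, 5, 8, 10, 12 and 14 days (n = 4 each) and 6 days (n = 3) AEL. Both genotypes carried the FRT82B chromosome, but they were separate strains, and the whole larva lacked *scrib* function in the tumor groups. No control beyond 5 days was analysed here, so genotype and age cannot be told apart in tumors of 6 to 14 days. The number of discs per library is not given in the sources used here, and the p-values measure the spread between libraries, whatever part of it is technical.

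Between 18437402 and 26619424 reads fell on genes in each library, so that 3 reads, taken as the limit of detection, corresponded to 0.116 to 0.166 CPM. The 12 wing disc markers were all present in every group, but 7 of the 12 were lower and 3 higher in tumors at 4 days, and 10 were lower and 2 higher at 5 days. Their sum at 5 days was 3716 to 3859 CPM in controls and 2028 to 2244 CPM in tumors. Markers of other tissues varied between libraries. The 14 digestive enzyme genes used as gut markers summed to 353 to 2094 CPM in tumors of 4 days, 569 to 1166 at 5 days and 4.60 to 13.5 at 14 days, against 1.04 to 264 in controls of 5 days. Of these genes 3 were at 0 in all controls of 5 days, and 13 of 13 tested fell with age in the tumors. Replicate 2 of the controls at 4 days stood apart, with 2562 CPM of gut markers and 4033 CPM of the 6 fat body markers, where the other 2 had at most 125 and 880.4 CPM. Of the 6 muscle markers, 6 were higher in tumors at both 4 and 5 days (summed level 1155 to 1359.6 and 433 to 717 CPM, against 297 to 518 and 49.7 to 73.1 in controls). Hemocyte markers were also higher in tumors (6 of 6 at 4 days, 4 of 6 at 5 days), and the 4 Malpighian tubule markers, of which *Drip* carried the sum, went from 32.9 to 34.7 CPM in controls of 5 days to 423 to 599 CPM in tumors of 14 days. Gut and fat body scores were used as covariates below, and the part of the other tissues in the GST differences was not tested. In bulk RNA, fewer cells of a type and less RNA per cell cannot be told apart.

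Expression of the family was dominated by a few genes. Per kilobase of exon and averaged over libraries, the level of *GstD1* was 1746 CPM per kb, followed by *GstS1* at 190.4, *GstE11* at 139 and *GstO3* at 108 CPM per kb. The other 13 genes described below lay between 10.1 (*GstE6*) and 65.2 (*GstE12*) CPM per kb. Of the 18 members below 10 CPM in all groups, 12 were still tested, and the 6 that were not tested (*GstD4*, *GstD8*, *GstD11*, *GstE2*, *GstE4* and *GstE14*) never exceeded 0.861 CPM in a library. *GstE14*, which acts in ecdysone synthesis in the prothoracic gland, was among these. The summed level of the family was 2336 ± 76.7 CPM (SD, n = 3) in the younger and 2392 ± 43.3 CPM (SD, n = 4) in the older controls. Tumors of 4 days summed to 2657 ± 15.8 CPM (SD, n = 4), those of 6 days to 3090.3 ± 120.0 CPM (SD, n = 3) and the oldest, of 14 days, to 2142 ± 172 CPM (SD, n = 4). The make-up of that sum changed more than its size, since *GstD1* gave 31.1% of it in controls of 5 days and 65.1% in tumors of 5 days, while *GstS1* gave 39.2% and 9.22%.

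The first question was how the discs of the 2 genotypes differed at the same age in days AEL. The study states that its control larvae pupate at 5 days and that *scrib* tumors grow over a prolonged larval period. Equal age is thus not equal stage, and genotype and stage cannot be told apart in these comparisons. The 7 salivary gland markers summed to 14.5 to 138 CPM in controls of 5 days and 0.0386 to 0.191 CPM in tumors of that age. Tumors of 4 days AEL had higher levels of 8 and lower levels of 10 of the 29 tested members, and tumors of 5 days had 14 and 6 (limma on log2(CPM + 1), Benjamini-Hochberg adjusted p under 0.05 over 9637 genes). Change was common in the whole transcriptome, as 61.0% of all tested genes were called at 4 days (32.4% higher, 28.6% lower) and 71.5% at 5 days (39.0% higher, 32.5% lower). By gene, 8 members were higher at both ages, 5 were lower at both, and 1 (*GstT4*) changed from lower to higher. The share of all genes with each of these patterns was not computed, so these counts are not set against the transcriptome. The median log2 fold change of the members was -0.0084 at 4 days and 0.28 at 5 days, against 0.035 and 0.063 over all genes tested. Libraries did not overlap between genotypes for 8 members that were above and 9 that were below controls at 4 days (30.0% and 26.5% of all genes), and for 14 and 6 members at 5 days (37.3% and 31.8% of all genes). Under scaling by library size alone the median of all genes at 4 days moved by -0.11, and the calls over all genes changed from 3118 higher and 2758 lower to 2463 and 3544. The members then numbered 8 higher and 12 lower.

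**Figure D1:**
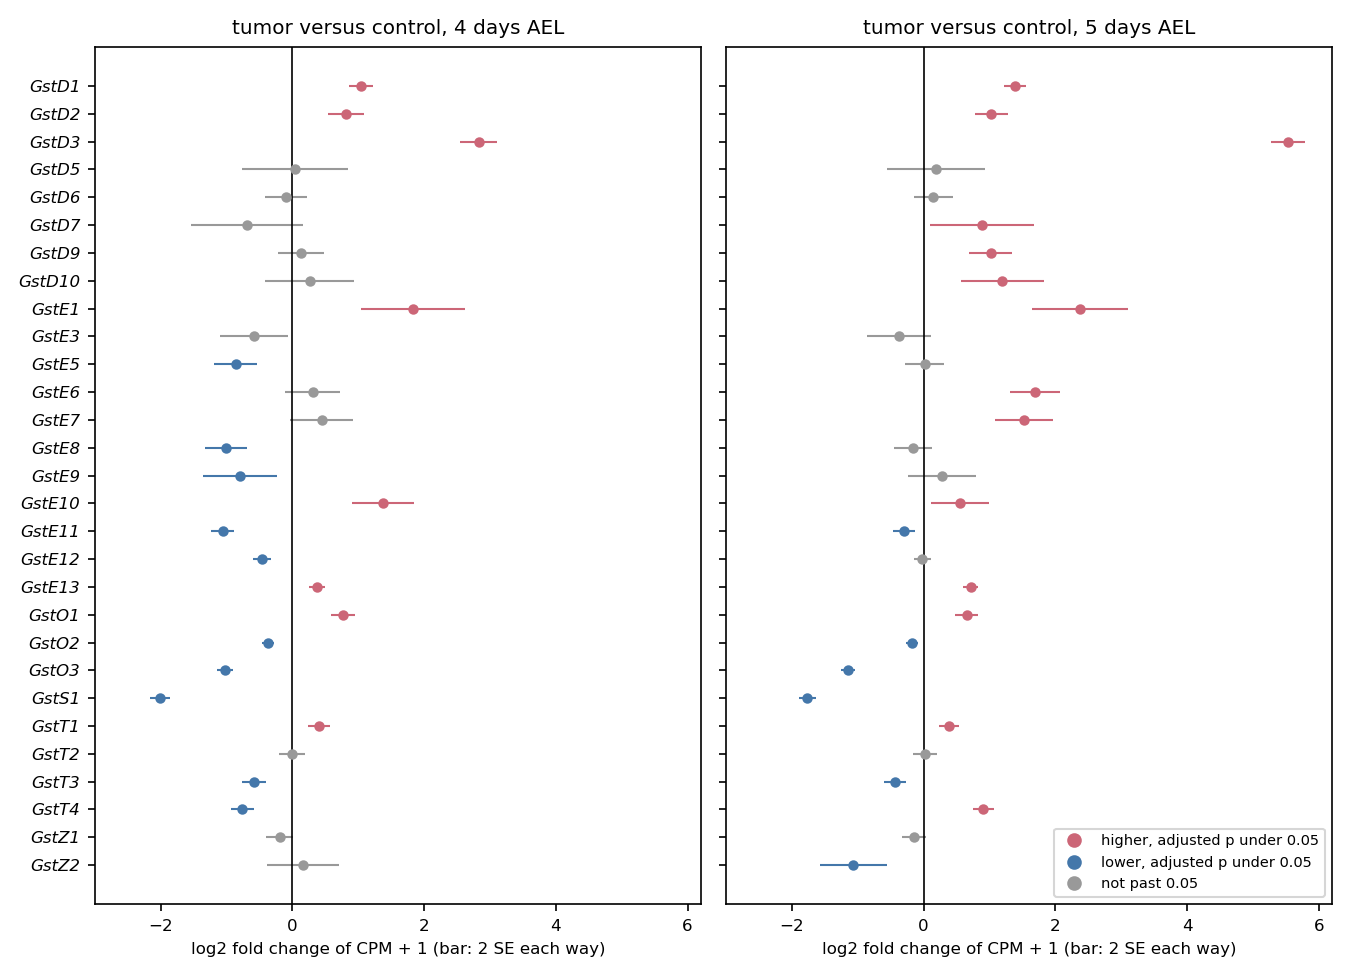
Log2 fold change of CPM + 1 between tumors and controls (x axis) for the 29 tested GST genes, ordered by class (y axis), at 4 days (left, 4 against 3 libraries) and 5 days AEL (right, 4 against 4). Points are limma estimates with bars of 2 standard errors each way, red for higher and blue for lower at adjusted p under 0.05. *GstD3* lies farthest to the right at both ages (2.83 and 5.53), *GstS1* farthest to the left (-2.01 and -1.76), and *GstT4* changes side (-0.76 and 0.91).

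Of the 8 tested delta members, 3 were higher in tumors at 4 days, a share near the 32.4% of all genes, and 6 at 5 days (39.0% of all genes). None was lower at either age. All 11 delta genes lie in 1 cluster of 20.9 kb on chromosome arm 3R (BDGP6, 12364776 to 12385624), with *GstD1*, *GstD9* and *GstD10* on the minus strand and the other 8 on the plus strand. *GstD1* (3R, 12367817 to 12369268) was by far the most abundant of them. Its levels were 882, 858 and 934 CPM in the 3 controls of 4 days and 1810.1, 1848, 1814 and 1845 CPM in the 4 tumors of that age. At 5 days the controls had 757, 737, 739 and 745 CPM and the tumors 1939, 1925, 2065 and 1845 CPM. Every tumor library was thus above every control library, by a ratio of means of 2.05 at 4 days and 2.61 at 5 days. The log2 fold change was 1.04 (SE 0.091, adjusted p = 3.4e-11) at 4 days and 1.38 (SE 0.084, adjusted p = 4.0e-15) at 5 days (limma).

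The change of *GstD3* (3R, 12373068 to 12373813) had the highest estimate of the family on the log2(CPM + 1) scale at both ages. This delta GST gene stood at 8.21, 11.4 and 11.4 CPM in controls of 4 days and at 0.593, 0.604, 0.425 and 0.719 CPM in those of 5 days. In tumors it reached 83.1, 83.9, 74.6 and 73.8 CPM at 4 days and 68.2, 69.2, 82.2 and 70.4 CPM at 5 days. The gene thus fell in controls between the 2 ages and the step in tumors did not pass the test, so that the ratio of means went from 7.64 to 124. Its log2 fold change was 2.83 (SE 0.14, adjusted p = 7.5e-17) and then 5.53 (SE 0.13, adjusted p = 5.4e-25), on a scale that understates changes of genes near 1 CPM. The control levels at 5 days lay above the limit of detection but rested on few reads. *GstD9* did not pass the test at 4 days (26.0 ± 4.10 CPM in 3 controls and 28.4 ± 3.32 in 4 tumors, SD) and was higher in tumors at 5 days (15.1 ± 1.40 and 31.5 ± 2.07 CPM, mean ± SD, n = 4 each, log2 fold change 1.02, SE 0.16, adjusted p = 2.3e-06, limma).

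Of the 5 low delta members that were tested, *GstD5* and *GstD6* passed at neither age. *GstD2* was higher in tumors at both ages, with means of 0.327 and 1.34 CPM at 4 days and 0.517 and 2.11 at 5 days. *GstD10* was higher at 5 days (0.169 and 1.72 CPM). *GstD7* was at 0 in the 4 controls of 5 days and at 1.24, 0.357, 1.20 and 0.782 CPM in the tumors, but its controls of 4 days read 0.262, 16.5 and 1.07 CPM, the high value being that of the library rich in gut and fat body markers. Without that library *GstD7* was higher in tumors at 4 days (log2 fold change 0.45, adjusted p = 0.030, limma). Its call at 5 days was lost without a filter on low counts, under library size alone, with the fat body score and on leaving out any of 7 of the 8 libraries compared (adjusted p up to 0.0999), and its sign changed with the gut score.

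**Figure D2:**
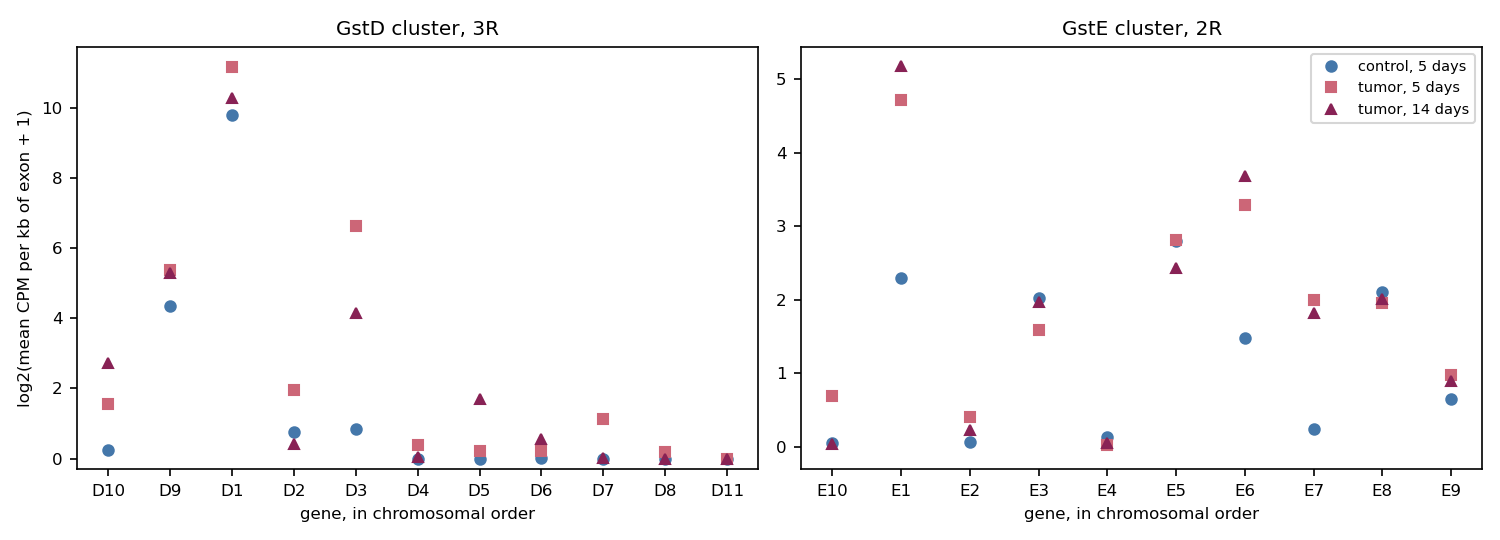
Mean level per kilobase of exon, as log2(CPM per kb + 1) (y axis), of the 11 delta genes on 3R (left) and the 10 epsilon genes *GstE1* to *GstE10* on 2R (right), in chromosomal order (x axis), in controls of 5 days (circles), tumors of 5 days (squares) and tumors of 14 days (triangles), 4 libraries each. *GstD1* tops the delta cluster in all 3 groups, and *GstD3*, in the same cluster, has the widest gap between tumors and controls of 5 days. In the epsilon cluster *GstE1*, *GstE6* and *GstE7* are higher in both tumor groups than in controls.

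Of the 11 tested epsilon members, 3 were higher in tumors and 5 lower at 4 days (32.4% and 28.6% of all genes), and 5 were higher and 1 lower at 5 days (39.0% and 32.5%). *GstE1* to *GstE10* form a cluster of 13.2 kb on 2R (18396638 to 18409835), and *GstE11*, *GstE12*, *GstE13* and *GstE14* lie elsewhere on the same arm. Within the cluster *GstE1* had the highest estimate on the log2(CPM + 1) scale at both ages. It went from 4.65 ± 0.804 CPM in controls to 19.0 ± 1.68 in tumors at 4 days and from 3.245 ± 0.453 to 21.1 ± 3.04 at 5 days (SD). The log2 fold change was 1.83 (SE 0.39, adjusted p = 1.8e-04) and 2.37 (SE 0.36, adjusted p = 1.2e-06) (limma). The ratio of means was larger for the low *GstE10* (14.6 and 14.9, against 4.10 and 6.49 for *GstE1*) and at 5 days for the low *GstE7* (15.8). *GstE6* (1.34 ± 0.178 CPM in controls and 6.57 ± 0.913 in tumors of 5 days, mean ± SD, n = 4 each) and its neighbor *GstE7* (0.144 and 2.28 CPM) were higher at 5 days and did not pass the test at 4 days. *GstE10* was higher at both ages but stayed at or below 2.03 CPM on average, its call at 5 days was lost with the gut score and with only the groups compared in the fit, and its gene shares 20 bases of exon with *GstE1* on the opposite strand. *GstE5*, *GstE8* and *GstE9* were lower in tumors at 4 days only by the test, and the call of *GstE9* was lost without replicate 2 of the controls (log2 fold change -0.20, adjusted p = 0.45, limma). The 4 tumors of 5 days read 2.13, 0.561, 0.0478 and 0.0920 CPM for *GstE10*, and without replicate 1 of them its log2 fold change was 0.21 (adjusted p = 0.27, limma), the call being lost also without control replicate 1 or 2 (adjusted p up to 0.051). *GstE7* passed the threshold at 4 days without replicate 2 of the controls (0.75, adjusted p = 0.0099).

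The 3 abundant epsilon genes outside the cluster went separate ways. *GstE11* (2R, 18503608 to 18505025) read 163, 135 and 146 CPM in controls and 73.3, 71.9, 67.8 and 69.7 CPM in tumors of 4 days, and 137, 130.2, 131 and 136 against 107, 111, 108 and 107 CPM at 5 days. Tumors were below controls in every library at both ages, with a log2 fold change of -1.06 (SE 0.088, adjusted p = 1.1e-11) that shrank to -0.30 (SE 0.081, adjusted p = 0.0016) (limma). *GstE12* read 108, 98.7 and 110.0 CPM in controls and 77.4, 76.3, 81.9 and 69.9 in tumors of 4 days, and was lower there by the test (log2 fold change -0.46, SE 0.066, adjusted p = 6.3e-07). At 5 days its libraries overlapped, at 98.1, 91.9, 101 and 89.4 CPM in controls and 98.4, 93.3, 94.2 and 89.7 CPM in tumors. *GstE13* was higher in every tumor library, at 60.6, 52.1 and 59.2 against 76.5, 77.7, 75.9 and 67.8 CPM at 4 days and 53.9, 47.2, 51.1 and 50.5 against 83.1, 84.3, 84.8 and 81.8 CPM at 5 days (log2 fold change 0.37, SE 0.060, adjusted p = 3.6e-06 and 0.71, SE 0.055, adjusted p = 1.4e-12).

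The sigma class has a single gene, *GstS1* (2R, 17093246 to 17099501), an abundant GST known in flies for its activity toward 4-hydroxynonenal, a product of lipid oxidation, and for its high level in flight muscle. Its estimate was the lowest of the family on the log2(CPM + 1) scale at both ages. Controls read 778, 669 and 659 CPM at 4 days and 945, 913, 945 and 945 CPM at 5 days. Tumors read 169, 159, 179 and 187 CPM at 4 days and 265, 277, 276 and 282 CPM at 5 days. Every tumor library lay below every control library, by a ratio of control to tumor means of 4.05 at 4 days and 3.41 at 5 days (log2 fold change -2.01, SE 0.073, adjusted p = 2.2e-20 and -1.76, SE 0.067, adjusted p = 4.2e-20, limma). The muscle markers given above were higher in tumors at both ages. Whether muscle RNA had a part in the *GstS1* difference was not tested.

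The omega class, GSTs with a cysteine in the active site, is known for thioltransferase and dehydroascorbate reductase activity. It split by gene although its 3 members lie close together on 3L (8518885 to 8524866). *GstO3* read 103, 88.3 and 103 CPM in controls and 48.1, 50.3, 49.5 and 43.1 in tumors of 4 days. At 5 days it read 162, 145, 163 and 152 CPM in controls and 72.5, 65.9, 72.3 and 67.2 in tumors. The genotypes did not overlap, and the log2 fold change was -1.02 (SE 0.057, adjusted p = 9.3e-16) and -1.15 (SE 0.053, adjusted p = 3.9e-18) (limma). *GstO2* was lower by less, with 138, 133 and 140.4 against 105, 109, 105 and 105 CPM at 4 days and 127, 117, 117 and 126 against 106, 104, 112 and 107 CPM at 5 days (log2 fold change -0.37, SE 0.046, adjusted p = 4.5e-08 and -0.18, SE 0.043, adjusted p = 5.1e-04). *GstO1* was higher in tumors at both ages, from 15.7 ± 1.497 to 27.4 ± 1.48 CPM and from 13.3 ± 0.591 to 21.6 ± 2.38 CPM (SD). *GstO2* shares 61 bases of exon with the opposite-strand gene *se*, an omega GST of eye pigment synthesis whose symbol the rule does not take.

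The theta class held the gene that changed sides. *GstT4* (X, 13404749 to 13409323) read 21.6, 22.7 and 24.7 CPM in controls and 13.9, 12.8, 14.7 and 11.5 CPM in tumors of 4 days, all tumor libraries being lower. At 5 days it read 18.2, 19.98, 18.8 and 18.2 CPM in controls and 34.7, 38.1, 34.4 and 37.5 CPM in tumors, all of which were higher. The log2 fold change was -0.76 (SE 0.089, adjusted p = 1.3e-08) at 4 days and 0.91 (SE 0.082, adjusted p = 4.2e-11) at 5 days (limma). *GstT1* was higher in every tumor library, with 39.5, 38.4 and 44.3 against 56.3, 53.8, 56.0 and 51.3 CPM at 4 days and 44.1, 39.3, 45.0 and 46.5 against 56.4, 56.0, 61.1 and 56.3 CPM at 5 days (log2 fold change 0.41, SE 0.083, adjusted p = 9.8e-05 and 0.39, SE 0.077, adjusted p = 5.4e-05). *GstT3* was lower at both ages (19.4, 21.7, 21.5 and 22.5 CPM in the controls and 14.7, 15.1, 14.7 and 17.4 in the tumors of 5 days). *GstT2*, next to *GstT1* on 2R, passed the test at neither age, with a 95% interval of the log2 fold change of -0.21 to 0.19 at 4 days and -0.16 to 0.21 at 5 days. Of the exon length of *GstT2*, 25.1% overlaps *CG12926* on the opposite strand, which limits what its counts show.

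The zeta class, counterparts of the maleylacetoacetate isomerase of tyrosine breakdown, had 1 call. *GstZ1* passed the test at neither age (11.6 ± 2.20 CPM in controls and 10.3 ± 1.06 in tumors of 5 days, mean ± SD, n = 4 each). The low *GstZ2* was lower in tumors at 5 days (3.47, 1.90, 3.02 and 1.96 CPM in controls and 0.116, 0.255, 3.49 and 0.276 in tumors), where 1 tumor library lay above all controls. edgeR and DESeq2 on the recovered reads did not call this difference.

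The next comparison asked whether the difference between genotypes itself differed between 4 and 5 days. It was more positive at 5 days for 15 of the 29 tested members and more negative for 2, where 38.7% of all tested genes passed (19.4% more positive, 19.2% more negative). The median of the members was 0.34 and that of all genes 0.022 on the log2 scale. Both negative calls (*GstE10* and *GstZ2*) were lost with edgeR, with DESeq2 and with only the groups compared in the fit, and *GstE10* changed sign with DESeq2. The 15 comprised 4 delta, 8 epsilon, 1 omega, 1 sigma and 1 theta gene. In controls alone, 4 members rose and 14 fell between 4 and 5 days (53.8% of all genes called, 26.6% higher and 27.2% lower), and the 2 contrasts share the control libraries. On this scale the estimate was largest for *GstD3* (2.70, SE 0.19, adjusted p = 3.8e-12) and *GstT4* (1.67, SE 0.12, adjusted p = 4.6e-12), both from limma. For *GstD3* the controls fell by 2.83 on the log2 scale while the 4 to 5 day step in tumors did not pass the test (-0.12). For *GstT4* the tumors rose by 1.39 and the controls fell by 0.28, a fall that was not called without control replicate 3 of 4 days (-0.22, adjusted p = 0.064, limma). Without replicate 2 of the controls at 4 days 14 members were called, *GstD7*, *GstE7* and *GstE9* being lost, and in controls alone 15 were called. With the fat body score in the model 12 were called, and those of *GstD1* and *GstS1* were among the 5 lost.

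**Figure D3:**
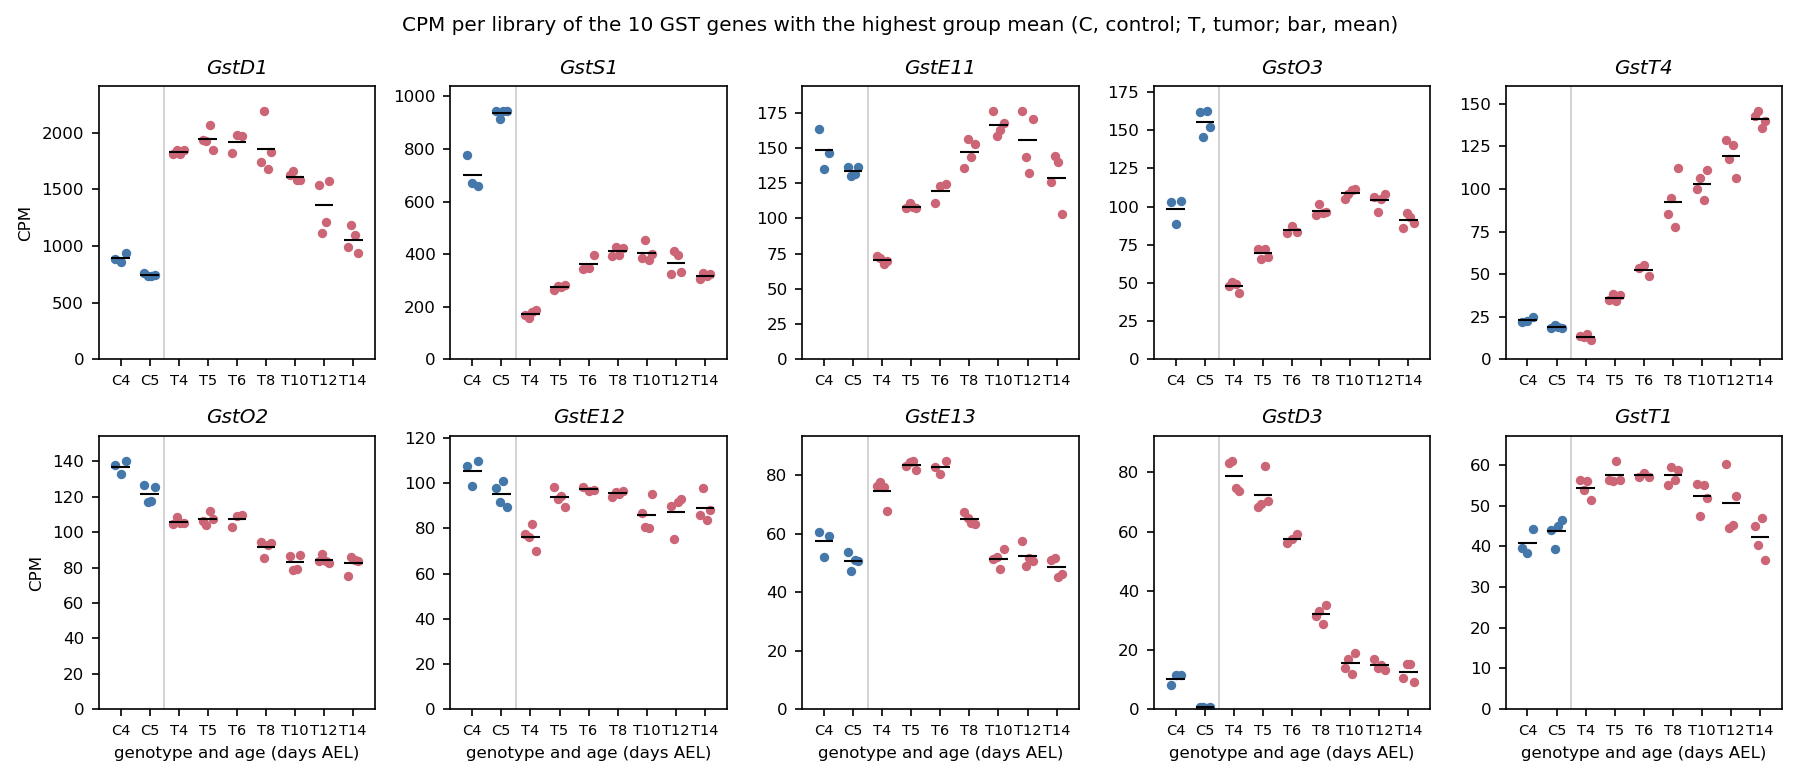
CPM per library (y axis, from 0) of the 10 GST genes with the highest group mean, in controls of 4 and 5 days (C4, C5, blue) and tumors of 4 to 14 days AEL (T4 to T14, red), 3 or 4 libraries a group, with a bar at each group mean. *GstT4* climbs from 13.2 to 141 CPM over the tumor ages, *GstD3* falls from 78.9 to 12.5 CPM, and *GstS1* stays below both control groups throughout.

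The tumor series followed the same genes from 4 to 14 days. On a straight line over the 27 tumor libraries, 9 of the 29 tested members rose and 10 fell with age, where 77.2% of the 9408 genes tested had a slope (36.4% rising, 40.8% falling). The median slope was -0.0024 log2 units a day for the members and -0.0040 for all genes. Between neighboring ages 34 of 174 pairs of member and step were called, 19 up and 15 down, against 17.4% of all such pairs. From 4 to 5 days 8 members rose and 2 fell (23.9% of all genes called, 12.2% up and 11.7% down). From 5 to 6 days 3 members rose and 0 fell (8.45% of all genes called, 4.50% up and 3.94% down). From 6 to 8 days 3 members rose and 4 fell (26.4% of all genes called, 13.1% up and 13.3% down). From 8 to 10 days 2 members rose and 4 fell (23.6% of all genes called, 11.3% up and 12.3% down). From 10 to 12 days 2 members rose and 0 fell (5.59% of all genes called, 2.87% up and 2.72% down). From 12 to 14 days 1 member rose and 5 fell (16.4% of all genes called, 6.07% up and 10.3% down). Under library size alone the 34 became 33, with 20 up and 13 down. That scaling moved the share of rises among all called genes from 49.6% to 60.2% for 6 to 8 days, from 47.8% to 59.3% for 8 to 10 days and from 37.1% to 53.8% for 12 to 14 days.

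Among the described genes *GstT4* had the steepest rise. Its level was 53.5, 55.5 and 49.1 CPM in the 3 tumors of 6 days, 85.3, 94.4, 77.8 and 113 CPM at 8 days and 99.8, 106, 93.7 and 111 CPM at 10 days. It went on to 129, 118, 126 and 106 CPM at 12 days and 143, 146, 136 and 139.8 CPM at 14 days. No library of 14 days overlapped any of 12 days or younger, and the mean at 14 days was 10.7 times that at 4 days. The slope was 0.28 log2 units a day (SE 0.028, adjusted p = 3.7e-10, limma), and steps were called upward from 4 to 5, 5 to 6, 6 to 8 and 12 to 14 days. The order depends on the scale for low genes, since in edgeR the slope of *GstD5*, which was near 0 in young tumors, was 0.59, that of *GstD6* 0.27 and that of *GstT4* 0.27.

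Among the described genes *GstD3* had the steepest fall, at -0.29 log2 units a day (SE 0.017, adjusted p = 6.2e-15, limma). Its level was 56.1, 57.6 and 59.2 CPM at 6 days, 31.4, 33.0, 28.8 and 35.3 CPM at 8 days and 13.8, 17.0, 12.0 and 18.9 CPM at 10 days. At 12 days it was 17.0, 13.9, 15.0 and 13.1 CPM and at 14 days 10.5, 15.1, 15.4 and 9.01 CPM. The fall was called from 6 to 8 and from 8 to 10 days, after which the groups overlapped. In edgeR the low *GstD7* (-0.99) and *GstE10* (-0.65), near 0 in old tumors, had steeper slopes, and *GstD2* (-0.30) the same slope as *GstD3* (-0.30). Even at 14 days every tumor library was above every control of 5 days, by a ratio of means of 21.4. That ratio rests on a control mean of 0.585 CPM. Tumors of 14 days overlapped the controls of 4 days (9.01 to 15.4 and 8.21 to 11.4 CPM).

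*GstD1* fell late. It read 1817, 1982 and 1967 CPM at 6 days, 1739.5, 2193, 1682 and 1826 at 8 days and 1623, 1666, 1581 and 1579 at 10 days. The levels were 1539, 1110.4, 1211 and 1573 CPM at 12 days and 992, 1185, 1100.4 and 934 CPM at 14 days. The last step alone passed the test (-0.36, SE 0.084, adjusted p = 0.0037, limma), and the slope was -0.081 a day (adjusted p = 1.1e-08). At 14 days all 4 libraries were still above the controls of 5 days (log2 fold change 0.49, SE 0.084, adjusted p = 5.4e-06).

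*GstS1*, *GstO3* and *GstE11* shared a shape, rising from a low level at 4 days and falling at the end. *GstS1* read 344, 346 and 395 CPM at 6 days, 394, 429, 397 and 423 at 8 days and 385, 452, 378 and 399.6 at 10 days. It then read 326, 412, 395 and 333 CPM at 12 days and 305, 329, 317 and 323 CPM at 14 days, always below every control library. *GstO3* read 82.4, 87.6 and 83.5 CPM at 6 days, 94.3, 102, 95.7 and 96.4 CPM at 8 days, 105, 108, 111 and 111 CPM at 10 days, 106, 96.6, 105 and 109 CPM at 12 days and finally 85.9, 96.1, 92.9 and 89.1 CPM at 14 days. Its libraries of 10 days were above those of 14 days without overlap. *GstE11* read 111, 123 and 124 CPM at 6 days, 136, 156, 143 and 152 CPM at 8 days, 176, 158, 162 and 167 CPM at 10 days, 176, 143, 132 and 171 CPM at 12 days and finally 126, 144, 140.2 and 103 CPM at 14 days. For all 3 the step from 4 to 5 days was called upward (0.67, 0.53 and 0.61 on the log2 scale) and that from 12 to 14 days downward (-0.19, -0.19 and -0.28), so that a single slope describes them poorly.

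The remaining described genes moved less. *GstE13* read 82.8, 80.5 and 85.0 CPM at 6 days, 67.5, 65.2, 63.8 and 63.4 CPM at 8 days, 51.3, 52.1, 48.0 and 54.6 CPM at 10 days, 57.5, 49.1, 51.5 and 50.8 CPM at 12 days and finally 51.1, 51.8, 45.1 and 46.3 CPM at 14 days. Its called falls lay between 6 and 10 days, where groups of neighboring ages did not overlap. *GstO2* read 103, 109 and 109.8 CPM at 6 days, 94.2, 85.5, 93.0 and 93.7 CPM at 8 days, 86.4, 78.4, 79.4 and 87.3 CPM at 10 days, 83.7, 87.8, 83.7 and 82.8 CPM at 12 days and finally 75.4, 85.9, 84.0 and 83.9 CPM at 14 days. It fell over the same steps. *GstT1* read 57.1, 58.1 and 57.0 CPM at 6 days, 55.2, 59.4, 56.2 and 58.8 CPM at 8 days, 55.4, 47.4, 55.2 and 51.9 CPM at 10 days, 60.3, 44.4, 45.3 and 52.3 CPM at 12 days and finally 45.1, 40.4, 47.1 and 36.6 CPM at 14 days. *GstE12* read 98.3, 96.7 and 96.9 CPM at 6 days, 93.9, 96.3, 95.4 and 96.5 CPM at 8 days, 87.0, 80.7, 80.4 and 95.4 CPM at 10 days, 89.8, 75.3, 91.9 and 93.0 CPM at 12 days and finally 85.8, 97.9, 83.6 and 88.3 CPM at 14 days. Neighboring ages overlapped for *GstT1*, which had a called fall from 12 to 14 days, and *GstE12* had no called step after 5 days. By slope, *GstT1* (slope -0.035), *GstO1* (-0.059) and *GstZ1* (-0.049) declined, and *GstE6* (0.059) and *GstT2* (0.018) rose slightly. The call for *GstT2* was lost on leaving out any of 11 of the 27 libraries (slope 0.014 to 0.022 and adjusted p up to 0.12 over all of them). *GstD9*, *GstE1*, *GstE12* and *GstT3* had slopes that did not pass the test. Within the delta cluster the directions differed, with *GstD2* and *GstD3* falling and the low *GstD5*, *GstD6* and *GstD10* rising. The slopes of *GstD6* and *GstD10* were not called with the fat body score. That of *GstD6*, a gene at 0.855 CPM or less, was lost also with DESeq2 and without tumor replicate 3 of 14 days (adjusted p = 0.066, limma).

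**Figure D4:**
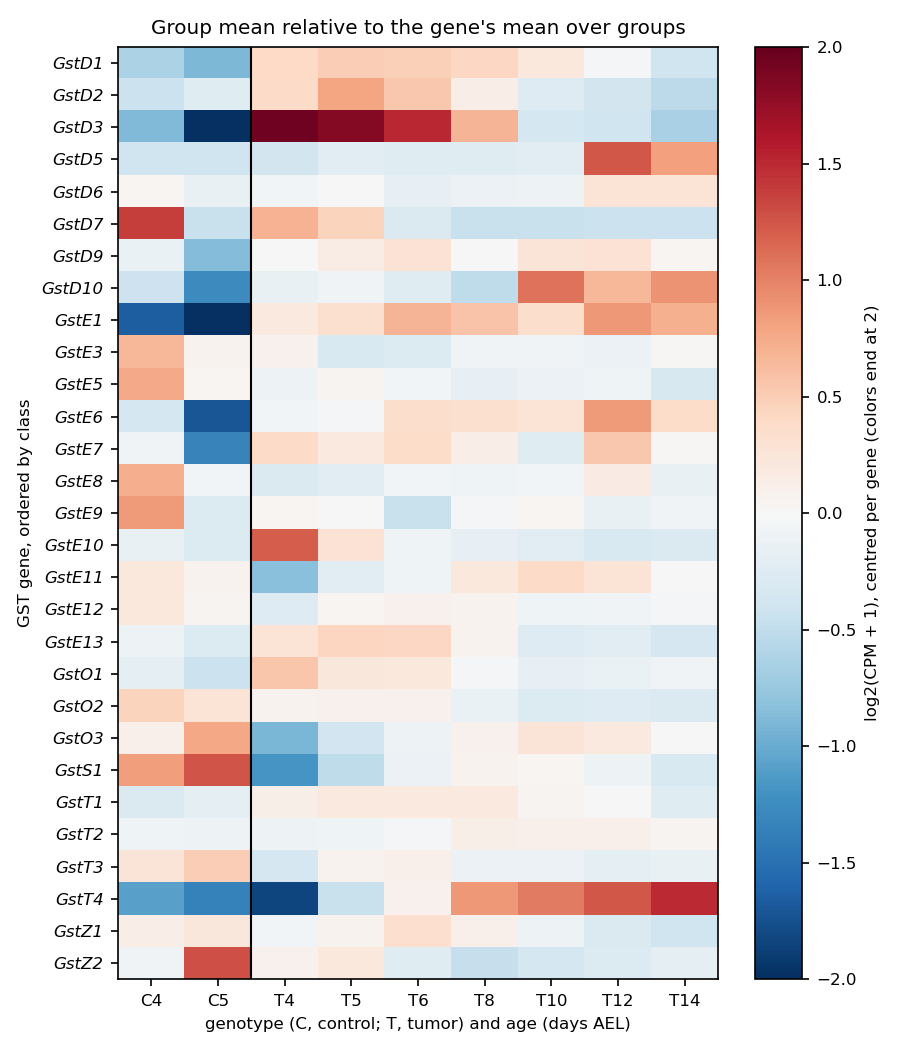
Group means of log2(CPM + 1) of the 29 tested GST genes (rows, by class), each centered on its own mean over the 9 groups (columns, C for control and T for tumor with the age in days AEL), with colors that end at 2 log2 units each way. *GstD3* and *GstT4* show opposite courses over the tumor ages, and *GstS1* is high only in the 2 control columns.

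Gut markers fell along the same ages, and 90.8% of the variance of their score among tumors lay between age groups, so that age and score overlap. With the score as a covariate 11 members kept a called slope, 4 rising (*GstD5*, *GstD6*, *GstD10* and *GstT4*) and 7 falling (*GstD1*, *GstD2*, *GstD3*, *GstE13*, *GstO2*, *GstT1* and *GstZ1*), with 49.9% of all genes called. In the 15 tumor libraries of 8 to 14 days with under 200 CPM of gut markers (4.60 to 102 CPM), a choice made after these sums were seen, 3 members rose and 7 fell, with 50.0% of all genes called. *GstT4* rose under both (slope 0.13, adjusted p = 0.012, and 0.10, adjusted p = 3.9e-05, limma), and *GstD3* fell under both (-0.24 and -0.21). *GstD5* and *GstD10* did not pass the test in the later libraries (adjusted p = 0.0501 and 0.065, limma). *GstS1* changed direction, to -0.046 (adjusted p = 0.18) with the score and -0.062 (adjusted p = 7.3e-04) in the later libraries. The slope of *GstE6* passed the test neither with the score (0.042, adjusted p = 0.34) nor in the later libraries (0.030, adjusted p = 0.58, limma). The part of gut or fat body RNA in the slopes of *GstE6*, *GstO1*, *GstO3*, *GstE11* and *GstS1* was not tested further.

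**Figure D5:**
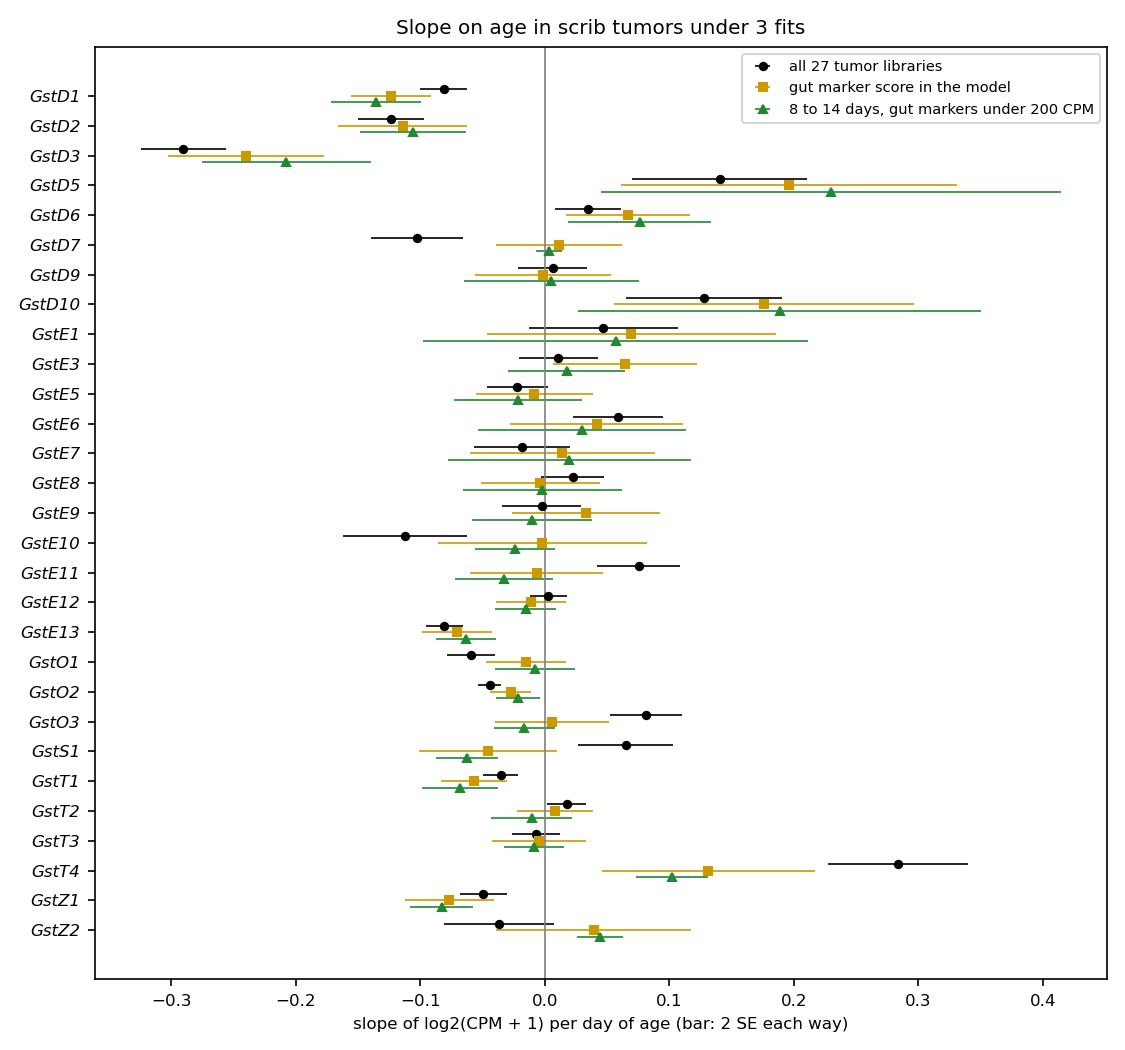
Slope of log2(CPM + 1) per day of age (x axis) in *scrib* tumors for the 29 tested GST genes (y axis), from limma with bars of 2 standard errors each way, over all 27 tumor libraries (circles), with the gut marker score in the model (squares), and over the 15 libraries of 8 to 14 days with gut markers under 200 CPM (triangles). *GstT4* lies right of 0 and *GstD1* and *GstD3* left of 0 under all 3, whereas *GstS1* and *GstE11* change side.

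The older tumors were set against controls of 5 days. Of 145 pairs of member and age from 6 to 14 days, 61 were higher and 31 lower, where 65.9% of all pairs were called (33.7% higher, 32.1% lower). Tumors of 6 days had 12 members higher and 5 lower (62.0% of all genes called, 32.9% up and 29.0% down). Tumors of 8 days had 13 members higher and 5 lower (62.7% of all genes called, 33.1% up and 29.6% down). Tumors of 10 days had 12 members higher and 7 lower (65.3% of all genes called, 33.1% up and 32.2% down). Tumors of 12 days had 13 members higher and 6 lower (67.6% of all genes called). Tumors of 14 days had 11 members higher and 8 lower (71.8% of all genes called, 35.6% up and 36.1% down). Under library size alone the pairs numbered 57 higher and 34 lower, and at 6 days the share of higher genes among all called went from 53.1% to 42.5%, with a shift of the median of -0.10. These 5 comparisons share the same 4 control libraries. The 9 members higher at all 5 ages were *GstD1*, *GstD3*, *GstD9*, *GstD10*, *GstE1*, *GstE6*, *GstE7*, *GstO1* and *GstT4*. All of them but *GstE1* were called lower in controls of 5 days than in those of 4 days. The list thus depends on the control age. All tumor libraries of 6 to 14 days also exceeded the controls of 4 days for *GstD1* (narrowly), *GstE1*, *GstE6* and *GstT4*. Means fell below those controls for *GstE7* at 10 days (1.43 and 1.89 CPM) and *GstD10* at 8 days (0.998 and 1.20 CPM). *GstD3*, *GstD9* and *GstO1* overlapped them at 14 days. The 5 members lower at all 5 ages were *GstO2*, *GstO3*, *GstS1*, *GstT3* and *GstZ2*. All of these but *GstO2* were called higher in controls of 5 days than in those of 4 days. The mean of *GstO3* in tumors of 10 days was above that of controls of 4 days (109 and 98.2 CPM). The share of all genes called in the same direction at all 5 ages was not computed. These counts are therefore not set against the transcriptome. At 14 days the log2 fold change was 2.84 for *GstT4*, 3.06 for *GstD3*, 2.76 for *GstE1*, 2.08 for *GstE6* and -1.55 for *GstS1*, with adjusted p of at most 6.8e-08 (limma). *GstE13* did not pass the test from 10 days on, nor *GstT1* at 14 days.

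Genes of the same chemistry outside the family were read from lists. Of the 3 regulators, 1 was higher and 1 lower at each age. *cnc*, which encodes CncC, was higher in tumors at 4 days (0.65, SE 0.047, adjusted p = 4.6e-13) and 5 days (0.25, SE 0.044, adjusted p = 7.5e-06, limma). *maf-S*, the partner of CncC on DNA, was lower at 4 days (-0.29, SE 0.068, adjusted p = 5.3e-04, limma) and did not pass at 5 days (0.027). *Keap1*, the inhibitor, did not pass at 4 days (-0.13) and was lower at 5 days (-0.42, SE 0.10, adjusted p = 6.2e-04, limma). *Gclc*, the catalytic subunit of the first step of glutathione synthesis, was higher by 0.90 and 0.59 on the log2 scale, and 3 of 5 tested genes of glutathione and thioredoxin metabolism were higher and 1 lower at 4 days, 4 and 1 at 5 days. Of 5 NADPH producing enzymes 4 were higher and 1 lower at both ages, from *Zw*, glucose-6-phosphate dehydrogenase, at 1.29 to *Idh*, isocitrate dehydrogenase, at -0.75 at 4 days. Among 15 tested cytochrome P450 and transporter genes of detoxification 10 were higher and 1 lower at 4 days and 9 and 2 at 5 days, led by *Cyp6a17* (6.17 and 6.18). Whether the separate strains or RNA of other tissues had a part in these list differences was not tested.

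Enzymes that remove peroxide and superoxide moved in both directions. Of 11 tested, 2 were higher and 6 lower at 4 days and 5 higher and 4 lower at 5 days. *Prx2540-2*, a peroxiredoxin, was at one end (2.22 and 2.48), and at the other were *Sod3*, extracellular superoxide dismutase (-1.33 and -1.58), and at 5 days also *Cat*, the catalase that breaks down hydrogen peroxide, which was lower at both ages (-0.50 and -1.58). *Nox*, an NADPH oxidase that produces superoxide, was lower at both ages (-2.50 and -1.36) and rose with age in tumors (0.46 a day). *Duox* was called higher at 4 days (0.25) and lower at 5 days (-0.12), by small amounts. Of the 3 GST-related genes the rule does not take, the membrane-bound *Mgstl* was higher in tumors at both ages (0.65 and 1.04), *gfzf* was lower at 4 days (-0.30, and -0.0094 at 5 days, which did not pass) and *se* was lower at 5 days (-0.55, and -0.11 at 4 days, which did not pass). These lists were chosen with earlier results of these data known, and the counts stand beside the 61.0% and 71.5% of all genes called.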

How the data were processed

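Per the labels and the study's methods, the authors extracted total RNA, sequenced paired ends, aligned the reads to BDGP6 (STAR), obtained counts with featureCounts under default settings and scaled these to CPM in edgeR. The default leaves out reads that overlap several genes, so counts of overlapping genes (*GstE1* and *GstE10*, *GstE9* and *imd*, *GstO2* and *se*, *GstT2* and *CG12926*) are uncertain. Whether reads that map to several places were left out or counted was not established here, so counts of similar GST paralogs are uncertain too. The default also counts without strand, so reads of antisense partners cannot be told apart. The deposited CPM values sum to 919589 to 1054130 per library, and the 20 deposited tables whose sum passes the nominal total were treated as signal, the same quantity after the authors' scaling factor. Their steps gave back whole reads for 100% of values (tolerance 0.01 reads or 1e-04 of the value). Every deposited column of values belonged to a sample.

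In R 4.3.3, limma 3.58.1 (empirical Bayes with a trend) was fitted on log2(CPM + 1) to the means of the 9 groups, or to age in days over the 27 tumors, for the 9637 (tumors: 9408) genes kept by filterByExpr on the recovered reads, 2-sided, with Benjamini-Hochberg adjustment over all of them and a threshold of 0.05. A fold change on this scale understates that of low genes. edgeR 4.0.16 and DESeq2 1.42.0 on the recovered reads, other scalings, filters, a pseudocount of 0.1, marker scores as covariates, a replicate block and leaving out each library were alternatives. The procedures were tested on simulated data. Gene positions and exon lengths came from the Ensembl 115 annotation of BDGP6, which held 13799 of the 17641 symbols and may differ from the release the authors used. Members above 10 CPM in a group mean were described singly, with the value in every library for the 10 with the highest group mean. The gut score was the mean log2(CPM + 1) of its markers. Lists were given by counts and by the called genes with the most positive and most negative change. The members and lists were chosen with earlier results of these data known. The limit of 3 reads covers counting error only. Replicate numbers did not pair the libraries (mean correlation of deviations -0.012 for 129 pairs with the same number and 0.0040 for 384 others). The 48 pairs of replicates differed by 5.80 to 47.1 times the sampling noise, so none was counted as 1. Promoter and protein sequences were not used here.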

Additional observations from a re-analysis of the deposited data

Results flagged for a closer look

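Single libraries stood far from the rest of their group in 12 of the 119 groups of 4 libraries examined over the 17 described genes, where chance gives about 1 in 20 groups. The gap to the nearest library, divided by the range of the group, exceeded Dixon's critical value for 4 values in each. Tumor replicate 3 of 5 days was high for *GstD3* (82.2 CPM, the others 68.2 to 70.4) and *GstT1* (61.1, the others 56.0 to 56.4). *GstT3* was high in tumor replicate 4 of 5 days (17.4, the others 14.7 to 15.1). *GstE6* was high in tumor replicate 3 of 10 days (13.9, the others 6.33 to 7.40) and in replicate 4 of 12 days (17.8, the others 11.02 to 12.2). Among tumors of 8 days, *GstO1* was low in replicate 3 (16.1, the others 18.6 to 18.9), *GstO2* in replicate 2 (85.5, the others 93.0 to 94.2) and *GstT3* in replicate 1 (11.3, the others 14.2 to 14.6). *GstT2* was low in tumor replicate 2 of 10 days (9.87, the others 11.8 to 12.2) and high in replicate 2 of 12 days (13.7, the others 10.4 to 10.8). In controls of 5 days *GstE1* was high in replicate 1 (3.92, the others 2.97 to 3.07) and *GstS1* low in replicate 2 (913, the others 945). The cause of these values was not tested.

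The difference between tumors and controls changed from 4 to 5 days for 10 described genes, by the interaction term of limma. The estimates on the log2 scale were 2.70 for *GstD3*, 1.67 for *GstT4*, 1.38 for *GstE6*, 0.89 for *GstD9*, 0.75 for *GstE11*, 0.44 for *GstE12*, 0.34 for *GstD1* (adjusted p = 0.027), 0.34 for *GstE13*, 0.25 for *GstS1* (adjusted p = 0.0499) and 0.19 for *GstO2*. For *GstS1* the call was lost with edgeR, with DESeq2, with DESeq2 size factors, with no filter, with the replicate block, with the fat body score and on leaving out any of 22 of the 34 libraries. For *GstD1* it was lost with the fat body score, without control replicate 3 of 4 days (0.31, adjusted p = 0.071) and without tumor replicate 3 of 5 days (0.32, adjusted p = 0.056).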

How the results depend on the processing

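For the described genes, each call at 4 and 5 days stood with its direction under all alternatives that tested the gene, and *GstZ1* gained one at both ages under library size alone (-0.30 and -0.23) and at 4 days without tumor replicate 3 (-0.25). With only the genes above a mean normalized count of 100, which keeps 17 members, 11 members changed in controls (18 before) and 10 in the comparison of the 2 ages (17 before). In the latter, all 10 earlier calls among the members kept stood, and the rest were no longer tested. The tumor slopes depended most on gut markers. With their score in the model 11 slopes were called, and in tumors of 8 to 14 days with under 200 CPM of them 10 were called (19 before). The slopes of *GstE11* (-0.0063 with the score, -0.033 in the later libraries), *GstS1* (-0.046 and -0.062), *GstO3* (-0.016 in the later libraries) and *GstT2* (-0.010 in the later libraries) then changed sign. So did that of the low *GstD7* (0.011 and 0.0034). Of these slopes only that of *GstS1* in the later libraries passed the test (adjusted p = 7.3e-04, limma), and the others cannot be told from 0. The cause was not tested. Leaving out 1 library at a time gave 17 to 20 called members at 4 days, 18 to 20 at 5 days, 13 to 18 in controls, 13 to 17 for the comparison of the 2 ages, 18 to 20 slopes, 30 to 36 pairs of member and step and 86 to 93 pairs of member and later age. With a replicate block the counts were 18 at 4 days, 20 at 5 days, 17 in controls, 16 for the comparison of the 2 ages (*GstS1* lost), 19 slopes, 32 steps and 91 later pairs. Genes under about 1 CPM rest on few reads, and *GstD7* changed sign at 5 days with the gut score.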

Other observations

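Some members varied between the libraries of 1 late age far more than others. *GstE1* read 43.3, 18.3, 28.0 and 17.4 CPM in the 4 tumors of 8 days and 41.9, 9.62, 44.4 and 10.9 CPM in those of 10 days, and 58.1, 20.5, 22.1 and 34.7 CPM at 12 days. Its SD was 19.0 CPM at 10 days, against 1.68 CPM at 4 days. *GstE6* and *GstE7*, in the same cluster, had their highest group mean at 12 days (13.0 and 3.41 CPM).

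Low delta genes came up in only some of the oldest tumors. *GstD5* read 5.77, 1.86, 0.0494 and 3.72 CPM at 12 days and 1.97, 0.540, 5.01 and 0.101 CPM at 14 days, after group means of at most 0.149 CPM up to 10 days. *GstD6*, which lies beside it, read 0.608, 0.0931, 0 and 0.855 and 0.479, 0.245, 0.715 and 0.0506 CPM at the same ages, so that replicates 1 and 4 of 12 days and 1 and 3 of 14 days held the higher levels of both. *GstD10* read 1.99, 8.50, 7.51 and 4.16 CPM at 10 days, against a mean of 0.998 at 8 days, and this step was called upward (1.59, SE 0.31, adjusted p = 4.3e-04, limma). Gut markers were at 590.4 CPM in replicate 1 of 10 days, which had the lowest *GstD10* of its group, and their part in this was not tested.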
